A study of Homo sapiens with 11 samples.

Results

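SHROOM3 is a gene on human chromosome 4 that encodes an actin-binding protein of epithelial cells. The window described here, chr4:77300000-77755000 in the hg19 build, holds the gene (about 77356253 to 77704406, plus strand) and about 50 kb on each side. Its members are all peaks of 8 deposited lists that overlap this window: 127 of 90458 peaks. The window was chosen by the peak calls of the estrogen receptor (ER): a site inside the gene was called when both hormones were given and not with estradiol alone. The calls and the strength of ER at that site are therefore a description and not a finding.

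The data are chromatin immunoprecipitation followed by sequencing (ChIP-seq) from Ishikawa cells, a human endometrial cancer line that expresses ER, kept in hormone-depleted medium before treatment. ER was mapped after 1 h with 100 nM dexamethasone plus 10 nM estradiol (called both hormones) and after 1 h with 10 nM estradiol. The glucocorticoid receptor (GR) was mapped after 1 h with both hormones and after 1 h with 100 nM dexamethasone, a synthetic glucocorticoid. H3K27ac, the acetylated lysine 27 of histone H3 that is found at active promoters and enhancers, was mapped after 8 h with both hormones, estradiol, dexamethasone or the vehicle DMSO. Each group is 1 library of 1 cell line, so no spread between replicates and no test between treatments can be given, and all differences below compare single libraries. Lists for ER or GR in vehicle-treated cells were not analysed here, so binding without hormone is not known. Usable tags numbered 5206574 to 8508828 in the receptor libraries and 9034395 to 18508574 in the H3K27ac libraries, and duplicates made up 33% of the dexamethasone H3K27ac library against 12% to 22% of the others.

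SHROOM3 protein binds actin filaments at the apical junctions of epithelial cells, where actomyosin contracts and the apical surface narrows. In the mouse embryo this shape change is needed for the neural tube to close. ER and GR are steroid receptors that bind DNA as dimers at related but distinct palindromic elements, and many of their sites lie far from gene starts. In the RefSeq gene table of GRCh38, the nearest protein-coding gene upstream is CCDC158 and SOWAHB lies downstream, while SHROOM3-AS1, a long non-coding RNA, and the microRNA genes MIR4450 and MIR548AH overlap SHROOM3. The deposited files carry no gene names, so which transcript any site acts on was not measured.

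The start of the gene is shown here because an H3K27ac region covered it in all 4 treatments. The 250 bases before the RefSeq start (GRCh38.p14, chr4:76434979-76435228, plus strand, a build other than that of the peaks) read, 5′ to 3′:
SHROOM3 promoter: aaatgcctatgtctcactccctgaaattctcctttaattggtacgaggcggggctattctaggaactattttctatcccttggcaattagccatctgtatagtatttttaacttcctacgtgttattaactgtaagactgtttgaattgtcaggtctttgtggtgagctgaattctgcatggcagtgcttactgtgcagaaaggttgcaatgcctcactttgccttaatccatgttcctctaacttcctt
These letters hold 40.8% G and C, against a median of 58% over 34788 promoters of the same length. Searched on both strands, they hold 0 matches to the full estrogen response element (GGTCA, then NNN, then TGACC), which 0.0402% of those promoters hold. They hold 0 matches to the full glucocorticoid response element (AGAACA, then NNN, then TGTTCT), which 0.00287% hold. The half-site GGTCA, part of the first motif, had 0 matches here and is present in 32.6% of promoters. The half-site TGTTCT, part of the second, had 0 matches and is present in 12.4%. No capitals are shown because these letters did not match in this window. No ER or GR peak of the lists lay at the start: the nearest, an ER site, lay 23.0 kb into the gene.

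The 19 receptor peaks of the window (6 ER with both hormones, 6 ER with estradiol, 5 GR with both hormones and 2 GR with dexamethasone) fell on 8 sites, all inside the gene. They are named below by the distance of the summit from the gene start, where the summit is the base of highest coverage. The window makes up 0.0169% of the 2.7 Gb that the peak caller took as the genome, and held 0.252% of ER peaks with both hormones and 0.169% with estradiol, and 0.307% of GR peaks with both hormones and 0.110% with dexamethasone. The next ER peak with both hormones lay 2729 kb left of the window and 2817 kb right of it. With estradiol the neighbours lay 2729 kb to the left and 1718 kb to the right.

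**Figure D1:**
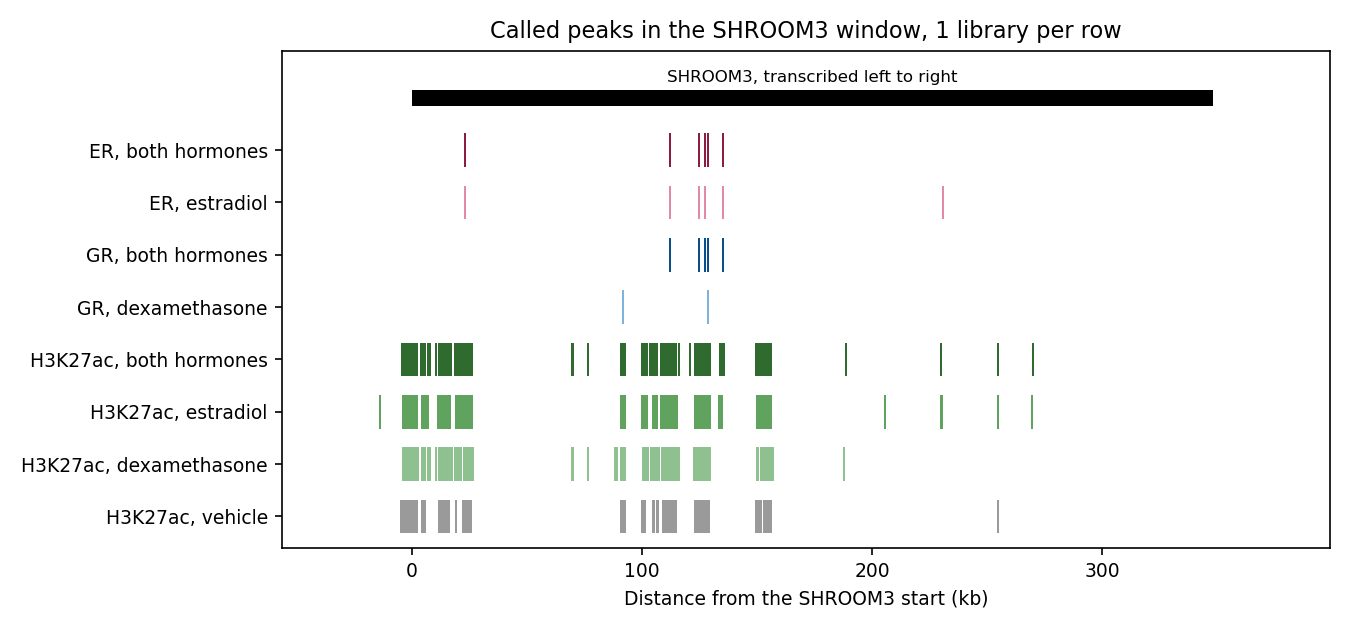
Called peaks of the 8 lists across the SHROOM3 window, 1 library per row, against distance from the gene start in kb; bars are peaks (drawn at least 0.9 kb wide), and the black bar is the gene. The 6 ER sites with both hormones and all 5 GR sites with both hormones lie between +23.0 and +135.1 kb, 4 of each within a stretch of 10913 bp.

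The +128.5 kb site (chr4:77484633-77484974 in the ER list with both hormones) is the one the window was chosen for. There ER with both hormones had a pileup, the count of stacked fragments at the summit after the authors' scaling, of 42.89 fragments and a fold enrichment over the local control of 34.0. No ER peak was called there with estradiol. GR was called with both hormones at a pileup of 51.0 fragments (fold enrichment 36.7) and with dexamethasone at 42.43 fragments (29.8). In the whole series, 192 of 2382 both-hormone ER peaks (8.06%, exact 95% interval 7.0 to 9.23) had no estradiol ER peak, and the SHROOM3 site ranked 1 among them by the authors' −log10 q, at 70.9 against 56.8 for the next and a median of 16.1. By pileup it ranked 4 among them. The estradiol list is the longer one, and cut to the length of the both-hormone list it left 19.9% of both-hormone ER peaks without a counterpart. In the whole both-hormone ER list it ranked 265, that is at the 88.9th percentile.

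The 3 peaks at this site coincided closely. The ER summit with both hormones lay 8 bp from the GR summit with both hormones and 5 bp from the GR summit with dexamethasone, and the GR summits lay 3 bp apart. Within its own list the GR peak stood at the 91.8th percentile with both hormones and at the 83.5th with dexamethasone. The GR libraries were scaled to different depths, so a depth-scaled pileup is used between them (fragments per 1000000 tags of the scaled library). It was 9.80 with both hormones and 7.40 with dexamethasone, a ratio of 1.32. Across 1028 GR peaks found in both lists the median ratio was 0.899, with quartiles of 0.743 and 1.1, so the site lay above the upper quartile in these libraries.

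How low estradiol ER must have been at the site can be bounded, since both ER lists were scaled to the same control depth. From the pileup and fold enrichment, the local background at the site was 0.290 fragments, and with that background a pileup of 8 fragments would have passed the authors' p cutoff of 1e-10. The both-hormone pileup was 5.36 times that limit. With the highest background of any ER peak in the window, 2.0 fragments, the limit is 16 fragments and the ratio 2.68. The limit holds for a stretch at least as long as a fragment, because no estradiol peak was narrower than the 90 bp fragment length.

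**Figure D2:**
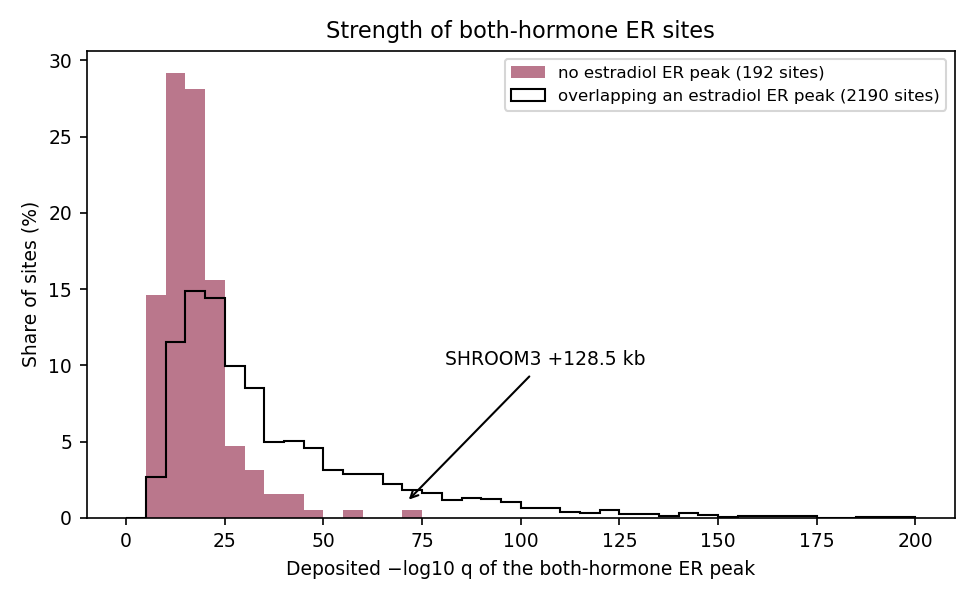
Share of sites (%) by deposited −log10 q for both-hormone ER peaks without (filled, 192 sites) and with (line, 2190 sites) an overlapping estradiol ER peak. The SHROOM3 +128.5 kb site, at 70.9, is the strongest of the filled set, whose median is 16.1 against 28.4 for the line.

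The other 3 ER sites in the group of the +128.5 kb site were called with both hormones and with estradiol. So were 2190 of the 2382 both-hormone ER peaks in the whole series. The 4 sites, at +124.7, +127.3, +128.5 and +135.1 kb, lay within chr4:77480646-77491558. Grouping both-hormone ER peaks with gaps of at most 10 kb gave 1939 groups in the genome, of which 25 (1.29%) held 4 or more peaks and the largest held 8. This group was reached through the chosen +128.5 kb peak, which is 1 of its 4. Large groups are more often reached through a chosen peak, so this share of groups does not measure how rare the group is.

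At +124.7 kb (chr4:77480646-77481097), the strongest ER site of the window by −log10 q, the ER pileup was 77.11 fragments with both hormones and 61.74 with estradiol. At +127.3 kb (chr4:77483452-77483704) it was 62.51 with both hormones and 50.29 with estradiol. At +135.1 kb (chr4:77491258-77491558) it was 62.51 with both hormones and 56.43 with estradiol. These are ratios of 1.25, 1.24 and 1.11, while 2190 shared ER peaks of the genome had a median ratio of 0.961 and quartiles of 0.823 and 1.13. The +124.7 and +127.3 kb sites thus lay above the upper quartile and the +135.1 kb site inside it. The fragment length differed between the libraries (121 bp with both hormones, 90 bp with estradiol), and its part in these ratios was not tested.

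By pileup, the +128.5 kb site was the lowest of the 4 for ER with both hormones and the highest of the 4 for GR. By fold enrichment it was the highest of the 4 for both receptors. ER there had 34.0, against 26.0 at +124.7 kb and 31.8 at both +127.3 and +135.1 kb. GR with both hormones had 36.7, against 14.9, 12.1 and 9.62 at those sites in the same order. In the both-hormone ER list the local background was 0.290 fragments at +128.5 kb. It was 2.0 at +124.7 kb and 1.0 at both +127.3 and +135.1 kb. Fold enrichment is a ratio to this background, so the ER order does not show more ER at +128.5 kb.

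**Figure D3:**
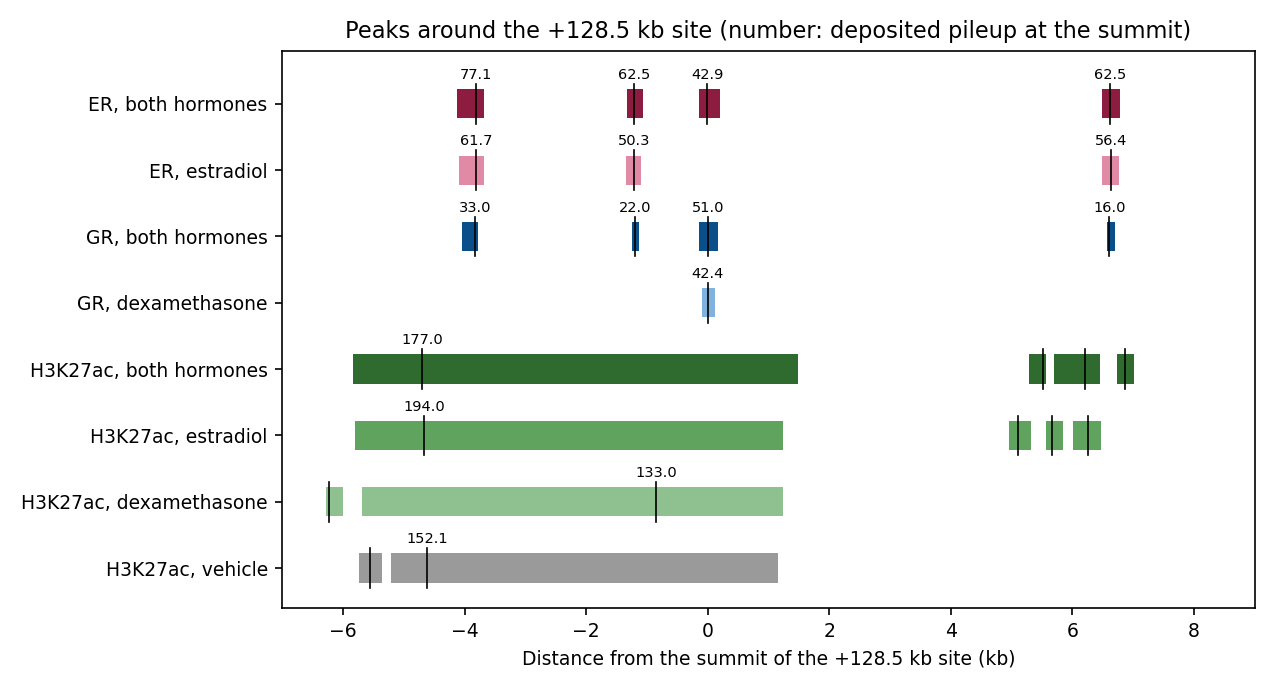
Peaks within 7 kb left and 9 kb right of the +128.5 kb summit, by list; bars are peaks to scale, vertical ticks are summits, and numbers are deposited summit pileups in fragments (narrow H3K27ac peaks are unnumbered). ER with estradiol has no bar at 0 kb and GR with dexamethasone has a bar there and at no other of the 4 sites.

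GR was found at all 4 ER sites of the group with both hormones, and with dexamethasone at the +128.5 kb site alone. At +124.7 kb GR with both hormones had a pileup of 33.0 fragments and a fold enrichment of 14.9, and its summit lay 13 bp from the ER summit. At +127.3 kb it had 22.0 fragments and its summit lay 20 bp from that of ER. At +135.1 kb it had 16.0 fragments, with summits 10 bp apart. In the within-list order these GR peaks stood at the 62.5th, 37.5th and 13.0th percentile.

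The remaining GR peak with both hormones lay at +112.1 kb (chr4:77468297-77468390), with 21.0 fragments, a fold enrichment of 5.91 and the 1.78th percentile. It sat 21 bp from the ER summit of that site. ER there had 22.81 fragments with both hormones and 22.49 with estradiol, close to equal. In all, 4 of the 5 both-hormone GR peaks of the window overlapped no dexamethasone GR peak, where 36.9% of that whole list did not, and 5 of the 6 both-hormone ER peaks overlapped a both-hormone GR peak, where 31.9% of that whole list did. A dexamethasone GR peak overlapped 1 of the 6, against 15.2% of the whole list, and 0 of the 2 dexamethasone GR peaks overlapped an estradiol ER peak, against 20.1%. In the stronger 50% of each list, 1 of 2 GR peaks lacked dexamethasone GR and 2 of 5 ER peaks had GR. Whole-list shares at this cut were not computed, so the shares above do not apply to these counts. Sites of 1 gene share their surroundings and are few, so these counts describe the window.

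Of the 4 GR sites missing with dexamethasone, the limits differ in how much they say. With the local background of the both-hormone list brought to the depth of the dexamethasone list, GR would have passed the cutoff at 14 fragments at +124.7 kb, and as a depth-scaled pileup the both-hormone value was 2.60 times that limit. At +127.3 kb the ratio was 2.02, at +135.1 kb 1.47, and at +112.1 kb 1.22. A missing call at the last of these sites therefore allows nearly equal pileups. Each limit rests on the background of its own site. The background at +112.1 kb was the highest of the 4 and gave a limit of 19 fragments, or 3.31 as a depth-scaled pileup. The both-hormone values to set against that limit were 6.34 at +124.7 kb, 4.23 at +127.3 kb and 3.07 at +135.1 kb, the last below it.

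**Figure D4:**
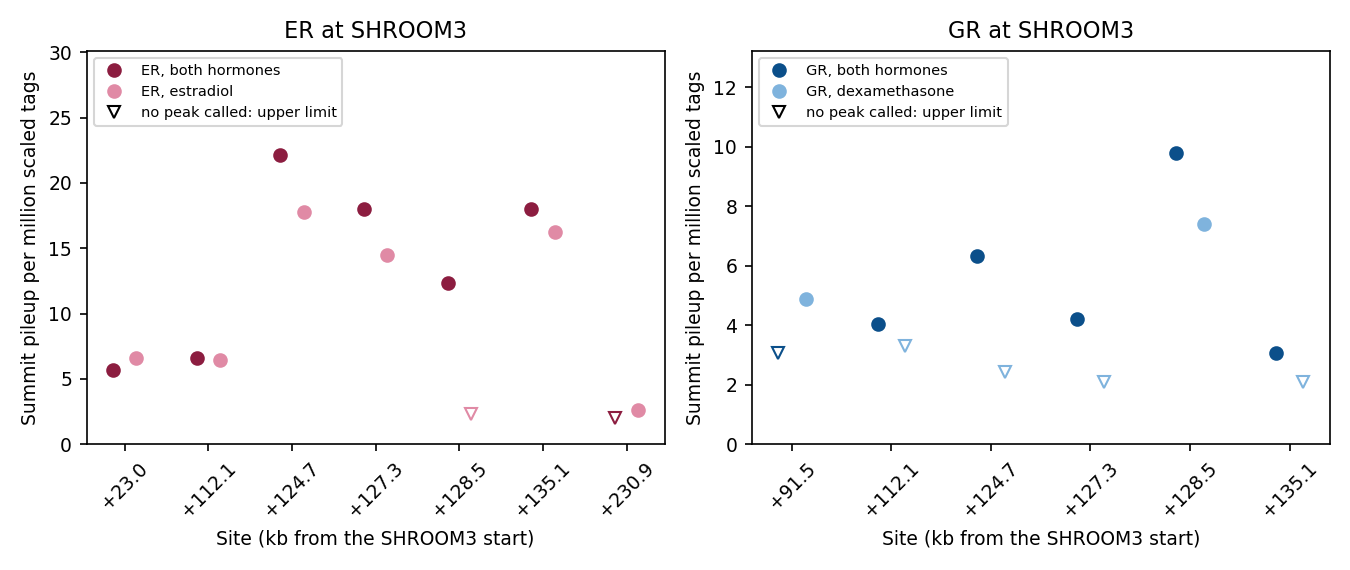
Depth-scaled summit pileup (fragments per 1000000 tags) at each site for ER (left; both hormones dark, estradiol light) and GR (right; both hormones dark, dexamethasone light); open triangles are the limits under which no peak would be called, from the local background of the partner list. The +128.5 kb site has the highest GR values of the window, and for ER it has a both-hormone value of 12.3 against a limit of 2.30 with estradiol.

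The other 3 receptor sites of the gene carried 1 receptor each. At +23.0 kb (chr4:77379143-77379339) ER had a pileup of 19.62 fragments with both hormones and 22.90 with estradiol, a ratio of 0.857, and no GR peak was called. At +230.9 kb (chr4:77587088-77587207) ER was called with estradiol alone, at 9.0 fragments. That peak ranked 3511 of 3560 in its list, and the limit in the both-hormone list was 7 fragments, so it is a weak peak near the cutoff. In the whole series 38.2% of estradiol ER peaks had no both-hormone counterpart. At +91.5 kb (chr4:77447721-77447858) GR was called with dexamethasone alone, at 27.98 fragments and a fold enrichment of 9.66, and its depth-scaled pileup was 1.59 times the limit of the both-hormone list. In the whole series 43.2% of dexamethasone GR peaks had no both-hormone counterpart.

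H3K27ac of the both-hormone list overlapped 6 of the 6 both-hormone ER peaks of the window, against 50.7% of the whole list. The estradiol H3K27ac list overlapped 5 of the 6 (53.4% of the whole list), as did the dexamethasone list (31.0%) and the vehicle list (36.4%), and in each the missing site was +135.1 kb. At that site the both-hormone overlap is with the edge of a 280 bp peak ranked 20328 of 20873, and the ER summit lies outside it. The nearest estradiol H3K27ac peak ends 8 bp from the site, so the estradiol count misses this site by a few bases. With dexamethasone and vehicle the nearest peak lay 5251 and 5330 bp away. The +128.5 kb site carried H3K27ac with every treatment, vehicle included. It lay in a domain of 7319 bp with both hormones, 7053 bp with estradiol, 6914 bp with dexamethasone and 6362 bp with vehicle, which also holds the +124.7 and +127.3 kb sites. The domain was among the strong ones of each list, at the 99.1th percentile with both hormones, the 98.0th with estradiol, the 98.6th with dexamethasone and the 97.5th with vehicle. Its depth-scaled summit pileup was 18.3 with both hormones, 17.9 with estradiol, 14.7 with dexamethasone and 10.9 with vehicle. Relative to vehicle these are ratios of 1.69, 1.65 and 1.36. Over 7516 regions called in all 4 lists the median ratios were 1.24 with both hormones, 1.48 with estradiol and 0.944 with dexamethasone. The domain lay above each median, and above the upper quartile with both hormones (1.56) and with dexamethasone (1.29). The 11 such regions of the window had median ratios of 1.69 with both hormones, 1.54 with estradiol and 1.49 with dexamethasone. Within the window the domain was thus at the median with both hormones, above it with estradiol and below it with dexamethasone. Fragment length differed between the libraries (280 bp with both hormones, 273 bp with estradiol, 232 bp with dexamethasone and 244 bp with vehicle). Its part in these ratios was not tested.

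Where the acetylation peaked within the domain differed with dexamethasone. The summit lay 4.69 kb upstream of the +128.5 kb site with both hormones, 4.66 kb with estradiol and 4.61 kb with vehicle. With dexamethasone it lay 0.836 kb upstream. The lists give 1 summit per peak, so the heights at the other place were not measured.

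Among the 192 both-hormone ER peaks without an estradiol ER peak, most lacked the acetylation seen at SHROOM3, and so did most shared ER peaks. H3K27ac of all 4 treatments overlapped 32 of them (16.7%, 11.7 to 22.7), against 620 of 2190 shared peaks (28.3%, 26.4 to 30.2). A both-hormone GR peak overlapped 101 of the 192 (52.6%, 45.3 to 59.8), against 658 of the 2190 shared peaks (30.0%, 28.1 to 32.0). A dexamethasone GR peak overlapped 81 of the 192 (42.2%, 35.1 to 49.5), against 282 of the shared peaks (12.9%, 11.5 to 14.4). An estradiol ER peak within 10 kb was found at 57 (29.7%, 23.3 to 36.7), and within 1 kb at 20 (10.4%, 6.48 to 15.6); the SHROOM3 site belongs to both sets, because the +127.3 kb site lies 921 bp from its edge. These intervals cover counting over peaks and not the spread between cultures.

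The exact pattern of the +128.5 kb site, called in 7 lists and missing for ER with estradiol, was shared by 12 other both-hormone ER peaks (13 with SHROOM3, 0.546% of 2382). Likeness was measured as the mean difference in within-list percentile over the 7 lists. The nearest was chr12:52520392-52520592, with a mean difference of 10.6 percentile points. Next came chr14:69017204-69017328 (12.2), chr11:130582435-130582708 (13.1), chr6:13423252-13423452 (13.3) and chr11:61739016-61739163 (13.8). The SHROOM3 site ranked 1 among the 192 by −log10 q and by fold enrichment, so these 5 had to be weaker for ER. Their ER fold enrichment with both hormones lay between 8.09 and 13.3, against 34.0, and their ER percentile between 11.6 and 46.6, against 88.9. Their GR fold enrichment with both hormones lay between 17.8 and 31.4, against 36.7 at SHROOM3, and with dexamethasone between 15.8 and 39.8, against 29.8.

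Across the window, H3K27ac peaks merged into 36 regions. The lists held 29 peaks here with both hormones, 27 with estradiol, 29 with dexamethasone and 23 with vehicle, covering 59.9, 55.3, 57.0 and 42.6 kb in that order. As a share of all acetylated length in each list, the window made up 0.296% with both hormones, 0.229% with estradiol, 0.460% with dexamethasone and 0.237% with vehicle. The dexamethasone list was the shortest of the 4 in the whole series, yet it covered more of this window than estradiol or vehicle did.

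More regions of the window were called with hormone and not with vehicle than the reverse. With both hormones 13 of 36 regions were present and absent with vehicle, and 0 the reverse; over 27111 regions of the series the shares were 14.9% and 15.1%. With estradiol 10 regions were present and absent with vehicle, and 0 the reverse, the same direction as in the series (21.8% and 4.6%). With dexamethasone 13 were present and absent with vehicle, and 1, at +254.8 kb, the reverse (10.8% and 35.3% in the series). The 13 regions called with both hormones and not with vehicle were 280 to 902 bp wide and their both-hormone peaks stood between the 2.46th and the 51.3th percentile of the list. These counts depend on the settings: in the lists cut to the length of the shortest, the both-hormone counts were 7 and 1 of 27 regions, and in the stronger 50% of each list 2 and 0 of 16. Merging peaks within 1 kb gave 7 and 0 of 16, and a window of 200 kb on each side of the gene gave 13 and 6 of 45. Series shares at these settings are not given here.

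The regions found in all 4 lists numbered 11 of 36, against 27.7% in the series. They held 6 of the 8 receptor sites, 3 of them in the 1 domain around the +128.5 kb site. The share of all receptor sites of the series that lie in such regions was not computed. The region over the gene start, from −4.6 to +3.0 kb, had a depth-scaled summit pileup of 18.6 with both hormones, 16.7 with estradiol, 16.0 with dexamethasone and 10.8 with vehicle. The region around the +23.0 kb ER site had the highest value of the window, with 26.0 in the estradiol list, beside 19.7 with both hormones, 17.8 with dexamethasone and 15.2 with vehicle. The region from +149.3 to +156.3 kb, with no receptor peak, was the only one of the 11 below vehicle: it had 10.3 with both hormones and 9.41 with dexamethasone, and 17.3 with estradiol, against 11.7 with vehicle.

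The region from +18.5 to +20.9 kb had the highest ratio to vehicle of the 11 regions with each hormone treatment. It had a depth-scaled pileup of 7.66 with both hormones, 4.52 with estradiol and 8.74 with dexamethasone, against 2.38 with vehicle. These are 3.22, 1.90 and 3.68 times the vehicle value, and the vehicle peak covered 246 bp of a stretch of 2413 bp called with both hormones. The region around the +91.5 kb GR site had 10.9 with both hormones, 8.02 with estradiol and 9.19 with dexamethasone, against 5.51 with vehicle. The region around the +112.1 kb site had 14.5, 13.2, 13.4 and 10.4 in the same order.

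The +135.1 kb site was the one member of the ER group outside this common acetylation. Narrow H3K27ac peaks lay on both sides of its ER summit with both hormones, and only upstream of it with estradiol. None lay there with dexamethasone or vehicle, where the nearest peak lay 5251 and 5330 bp away. With both hormones a peak of 752 bp ended before the ER summit and one of 280 bp began after it, at pileups of 31 and 20 fragments, and with estradiol the strongest of the narrow peaks had 43.0 fragments. The regions found with both hormones and estradiol and in no other list numbered 4 of 36 (5.34% in the series), of which 2 lay upstream of this site and 1 lay within 1 kb of the +230.9 kb ER site.

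Regions found with both hormones and dexamethasone and in no other list also numbered 4 of 36 (3.38% in the series). They lay at +7.7, +10.5, +69.8 and +76.6 kb, and none had an ER or GR peak within 1 kb. The strongest, at +7.7 kb, had a pileup of 42.0 fragments with both hormones and 51.0 with dexamethasone. Receptors were mapped after 1 h and acetylation after 8 h, so binding at the later time was not measured.

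**Figure D5:**
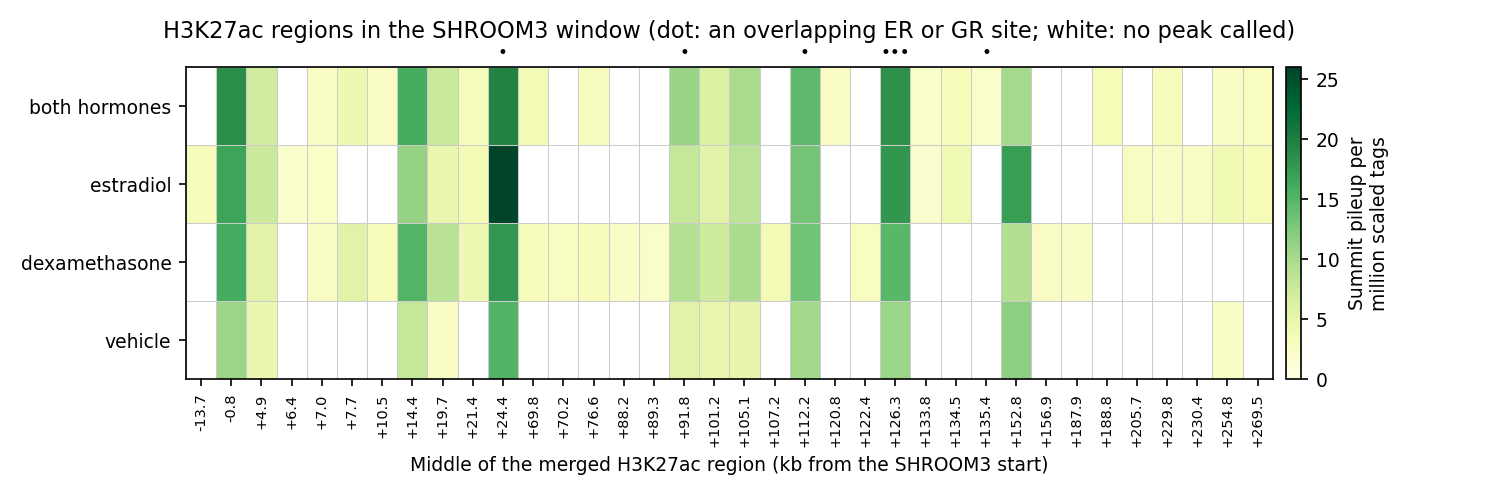
Depth-scaled summit pileup (colour, fragments per 1000000 tags) of the 36 merged H3K27ac regions of the window, ordered by position (middle of the region in kb from the gene start), in the 4 treatments; white cells have no peak and dots mark ER or GR sites that overlap a region. The 11 regions filled in every row include the gene start and the +126.3 kb region that holds 3 receptor sites, and the cells of the +133.8 and +134.5 kb regions are filled with both hormones and with estradiol.

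At the edges of the window the rule left few peaks in doubt. The nearest H3K27ac peak outside on the left lay 71.9 kb away (estradiol, fold enrichment 7.31) and on the right 63.5 kb away (estradiol, 8.95), while the outermost inside were at 42.6 kb from the left edge (estradiol, 5.60) and 129.1 kb from the right edge (both hormones, 7.98). The nearest receptor peak outside was a dexamethasone GR peak 300.4 kb to the left, with a fold enrichment of 10.7.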

How the data were processed

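Of 11 samples, 8 peak lists were used, each from 1 library, and groups follow the sample titles. Per the submitters' processing notes, reads were aligned with Bowtie 1.1.2 to hg19 and peaks called with MACS2 2.1.0.20140616. Per the file headers, each library was set against a control at a p cutoff of 1e-10, with 1 tag kept per position and the larger library scaled to the smaller. The deposited pileup is a signal (fragment coverage at the summit after scaling). The deposited fold enrichment is a ratio to the local control background, and significance is given by the authors as −log10 of p-values and q-values. The headers state that q-values were not calculated, although the column holds values. The control sample's labels name both input and IgG, so its kind is uncertain. The H3K27ac time follows the treatment label (8 h), while the protocol text gives 1 h for every sample. Deposited positions are 1-based hg19 values in bp.

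Peaks were shared where they overlap by at least 1 bp. H3K27ac peaks that overlap or touch were merged. Depth-scaled pileups are per 1000000 tags of the scaled library. The local background is (pileup + 1) / fold enrichment − 1, and a Poisson tail with it gave every deposited receptor −log10 p within 0.05. Where the pileup is a whole number, the tail above it and the tail that includes it were both tried and the closer was kept. The limits use the tail above it. Intervals are exact Clopper-Pearson 95% intervals over peaks and cover counting error only. The overlap code was tested on simulated intervals with 0 mismatches. No p-value was computed. Python 3.11.15, pandas 2.3.3 and scipy 1.17.1 were used. Every receptor peak of the window is named. H3K27ac regions are named within 1 kb of a receptor peak, with the 5 strongest others, and any further ones were chosen after their values were seen. The most alike sites are those with the same calls and the closest percentiles. The members and lists were chosen with earlier results of these data known. The alternatives are given in the closing section. No hg19 genome was used here, so no sequence of a peak is shown.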

Additional observations from a re-analysis of the deposited data

How the results depend on the processing

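Each group is 1 library, and depth and fragment length differ between lists, so a missing call is not absence. No paired analysis was possible because each group holds 1 sample. Of the 55 values recomputed, 36 kept close to the main value (within 1.5 times for counts, ranks and limits, inside the 95% interval for the share) and 19 moved.

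The count of both-hormone ER peaks without estradiol ER was 1 under each alternative except when peaks within 1 kb counted as shared, where it was 0, since the +127.3 kb site is that near. For the same reason the site has no rank among peaks with no estradiol peak within 1 kb. Each list cut to its stronger 50% left 1 both-hormone GR peak without dexamethasone GR, against 4, and 2 ER peaks with GR, against 5, because the weaker GR peaks of the window fall under that cut. The site ranked 131 by fold enrichment and 567 by pileup, against 265, and among sites without estradiol ER it ranked 4 by pileup, against 1. The pileup limit of 8 was 5 with a p cutoff of 1e-05 and, in an alternative added after seeing the data, 16 with the highest background of the window. The 8.06% share of both-hormone ER peaks without estradiol ER was 9.66% with summits within 100 bp and 19.9% with the estradiol list cut to equal length.

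For H3K27ac, merging peaks within 1 kb gave 6 regions in all lists, against 11, and 7 with both hormones and not vehicle, against 13. The stronger 50% of each list gave 2 regions with both hormones and not vehicle, and 1 each shared by both hormones with dexamethasone alone or with estradiol alone, against 4 each. Lists of equal length gave 7 with both hormones and not vehicle, 1 the reverse, against 0, and 1 with both hormones and estradiol only. A window of 200 kb each side gave 6 regions with vehicle and not both hormones. Without the dexamethasone list, with 33% duplicates and added after seeing the data, 12 regions were in every remaining list.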
